A study of Mus musculus with 6 samples.

Results

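The LARP family comprises the RNA-binding proteins that share a La module, a pair of folded domains that grips RNA. Its 7 mouse genes, Larp1, Larp1b, Larp4, Larp4b, Larp6, Larp7 and Ssb, were followed here among the 55487 genes of a count table from mouse oocytes. The genes were taken by symbol as a named family. The family was chosen by name with its counts in the control and metformin libraries already known, so every difference between those groups given for the 7 genes is a description and carries no test.

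The founding member, La, is encoded by Ssb and holds the uridine-rich 3′ ends of new RNA polymerase III transcripts such as tRNA precursors. LARP7 holds the 7SK RNA, the scaffold of a nuclear particle that keeps the elongation kinase P-TEFb inactive. The cytoplasmic members act on mRNA. LARP1 binds the cap and the pyrimidine-rich 5′ end (TOP motif) of mRNAs for ribosomal proteins and is controlled by the kinase complex mTORC1, while LARP4 and LARP4B bind poly(A)-binding protein and stabilise mRNA. LARP6 is known in human and rat cells for binding a stem-loop in collagen mRNAs. A growing oocyte stores its mRNA, stops transcribing, and then adjusts translation and poly(A) tails through maturation, which is why RNA-binding proteins of this kind are studied there.

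RNA was sequenced from 6 libraries, 3 of control and 3 of metformin oocytes. The series title gives aged mice as the source, while the labels give no strain, age, allele or number of oocytes per library. In both groups the mice had been primed with pregnant mare serum gonadotropin (10 IU); germinal-vesicle oocytes taken 46 to 48 h afterwards were stripped of cumulus cells and matured for 16 h in M16 medium to metaphase II. Metformin, a biguanide used against type 2 diabetes, was in the medium of the treated oocytes only; the protocol names 10, 20 and 50 μM, and the labels do not say which of these was sequenced.

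Libraries held 8622281 to 10588292 counted reads and correlated at 0.954 to 0.973 with each other (Pearson r over 6668 genes of at least 10 CPM, reads scaled to a common library total by TMM). All 10 oocyte markers had reads in every library, with summed levels of 27909 to 30167 CPM in control and 25759 to 34764 CPM in metformin libraries. Of 12 cumulus and granulosa markers 5 had reads in every library, and Amh, Foxl2 and Ptx3 had none in any. Serpine2 dominated their sum, which was 1383 to 1550 CPM (control) and 1179 to 1669 CPM (metformin). The 10 markers of stroma, theca and endothelium, of which Cyp17a1 had no read, summed to 29.96 to 36.1 and 26.2 to 37.6 CPM. Blood and immune markers, of which Cd3e and Cd79a had no read, summed to 33.3 CPM in control replicate 1, to 1.70 CPM in the lowest control library and to 1.28 to 2.28 CPM with metformin. The part of these other cell types in the results was not tested. Gdf9, an oocyte-secreted growth factor gene given as a reference level, stood at 7194 ± 181 CPM (control) and 7260.4 ± 981 CPM (metformin; SD, n = 3 each).

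The annotated 3′ ends of the family are shown first, since the library kit primes cDNA synthesis on poly(A) tails and the oocyte lengthens tails through a cytoplasmic polyadenylation element (CPE). Each sequence is 30 bases read 5′ to 3′ from a GENCODE M21 transcript (GRCm38), and capitals mark the polyadenylation hexamer (AATAAA or ATTAAA) or, in Larp1 and Ssb, the CPE (TTTTAAT or TTTTAT) lying 18 and 73 bases before it.
Ssb: ttacagatttctTTTTATgaaagttgtata
Larp7: gcaaatgcaacttcagatttcataAATAAA
Larp1: tatgcttttctTTTTAATacaaaaaaaatg
Larp1b: ttaaggggtaagaaatttaagttaAATAAA
Larp4: attaaaattacaaaattagaaaaaAATAAA
Larp4b: caatttttcttttgattcttttaaATTAAA
Larp6: gacatcacctgagaacttgcaagaAATAAA
A CPE within 100 bases upstream of the hexamer, on the transcript strand, was found in 2 of the 7 genes. It was found in 22.2% of the 8474 tested genes with a hexamer in the last 40 bases and in 18.7% of all 15131 such protein-coding genes. For Larp4b the transcript with the longest coding sequence ends in an A-rich stretch without a hexamer, and another annotated coding transcript, the longest in coding sequence among those with one, is shown.

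The 7 genes spanned from the most abundant oocyte mRNAs to no reads at all. Ssb was the highest, Larp7, Larp4 and Larp4b were intermediate, Larp1b and Larp1 were low and Larp6 was not detected. Levels between genes were compared per length, as the FPKM values that the authors deposited (fragments scaled by gene length and library total), with the spread over all 6 libraries.

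Ssb (ENSMUSG00000068882, chromosome 2, 69861562 to 69871846, plus strand, GRCm38) had FPKM levels of 587, 760 and 536 in control replicates 1 to 3 and 515, 533 and 650 in metformin replicates 1 to 3. It held 0.201% to 0.297% of all counted reads and stood 82nd of all genes in mean FPKM. Every library had at least 16.1 times as much Ssb as Larp7, the next member. Ssb alone made up 88.0% to 92.0% of the FPKM summed over the family.

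Larp7 (ENSMUSG00000027968, chromosome 3, 127536714 to 127553349, minus strand) had FPKM levels of 31.7, 31.1 and 33.3 in control and 31.3, 29.5 and 39.1 in metformin libraries. Metformin replicate 3 was the highest of the 6 and the other 5 lay close together. Larp7 exceeded Larp4 in FPKM in 6 of 6 libraries.

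Larp4 (ENSMUSG00000023025, chromosome 15, 99970065 to 100016358, plus strand) and its paralog Larp4b (ENSMUSG00000033499, chromosome 13, 9093881 to 9174451, plus strand) were the closest neighbours in the order. Larp4 had FPKM levels of 16.4, 13.6 and 16.4 in control and 21.02, 15.9 and 13.8 in metformin libraries. Larp4b had 18.3, 18.2 and 17.1 in control and 14.95, 13.4 and 10.02 in metformin libraries. Larp4 was the higher of the pair in 3 of 6 libraries, those with metformin, so the pair did not differ beyond its spread over all libraries.

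The LARP1 pair was led by the less studied member. Larp1b (ENSMUSG00000025762, chromosome 3, 40949828 to 41040234, plus strand) had FPKM levels of 2.57, 2.77 and 2.89 in control and 2.49, 2.93 and 2.98 in metformin libraries. Larp1 (ENSMUSG00000037331, chromosome 11, 58009064 to 58062034, plus strand) had 0.645, 0.506 and 0.503 in control and 0.659, 0.518 and 0.455 in metformin libraries, from only 48 to 72 reads per library. Larp1b exceeded Larp1 in FPKM by 3.78 to 6.56 times, in 6 of 6 libraries.

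Larp6 (ENSMUSG00000034839, chromosome 9, 60712989 to 60738801, plus strand) had 0 reads in each of the 6 libraries. A count of 0 allows a level of up to 0.283 to 0.348 CPM per library, the worth of 3 reads, by counting error alone.

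**Figure D1:**
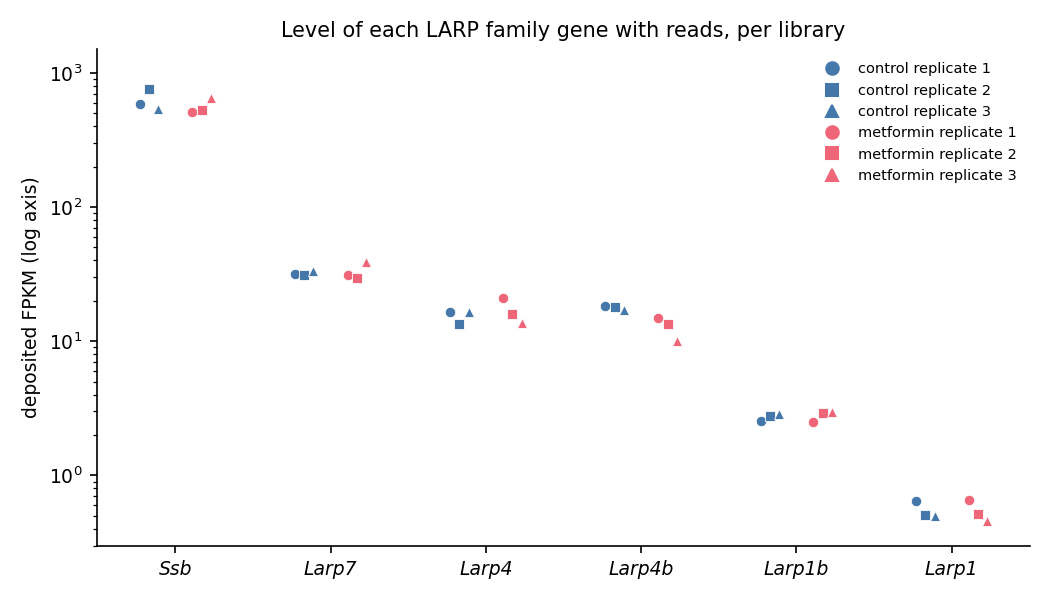
Deposited FPKM (log axis) of the 6 LARP family genes with reads, 1 point per library, coloured by group and shaped by replicate. Ssb lies above every other gene at 515 to 760 FPKM and Larp1 lies lowest at 0.455 to 0.659, while the points of Larp4 and Larp4b overlap; Larp6 had 0 reads and is not drawn.

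The deposited FPKM values rest on a gene length that counts overlapping exons more than once. The length that follows from count, total count and FPKM was the same in all 6 libraries for each member. Over 4311 genes with at least 200 reads in every library, it lay within 1% of the summed lengths of all distinct GENCODE M21 exons for 97.6% of genes, and within 1% of the union of those exons for 12.8%. Larp1b was an exception, with a distinct-exon sum of 15755. With 15 annotated transcripts, this gene was assigned 14928 bases, while its transcript with the longest coding sequence has 2497. Larp7, with 4 transcripts, was assigned 3791 bases against 2121, Ssb 3905 against 2088, Larp4 17956 against 6530, Larp4b 15979 against 5610 and Larp1 11012 against 6617.

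Dividing CPM by the length of the transcript with the longest coding sequence, a choice made after seeing the data, kept the order and changed the distances. Ssb then stood at 1121 ± 188 CPM per kb (SD, n = 6), Larp7 at 58.8 ± 8.97, Larp4 at 44.5 ± 6.11, Larp4b at 43.6 ± 8.42, Larp1b at 16.7 ± 1.97 and Larp1 at 0.910 ± 0.105 (SD, n = 6 for each). On this scale Larp1b exceeded Larp1 by 13.6 to 23.5 times. Larp7 exceeded Larp4 in 5 of 6 libraries, with ratios of 0.966 to 1.84, so these neighbours no longer separated in every library. Per kb of exon union, Larp1b stood at 4.975 ± 0.589 CPM and Larp1 at 0.882 ± 0.101 CPM (SD, n = 6 each). The distance within the LARP1 pair thus depends on the length used.

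**Figure D2:**
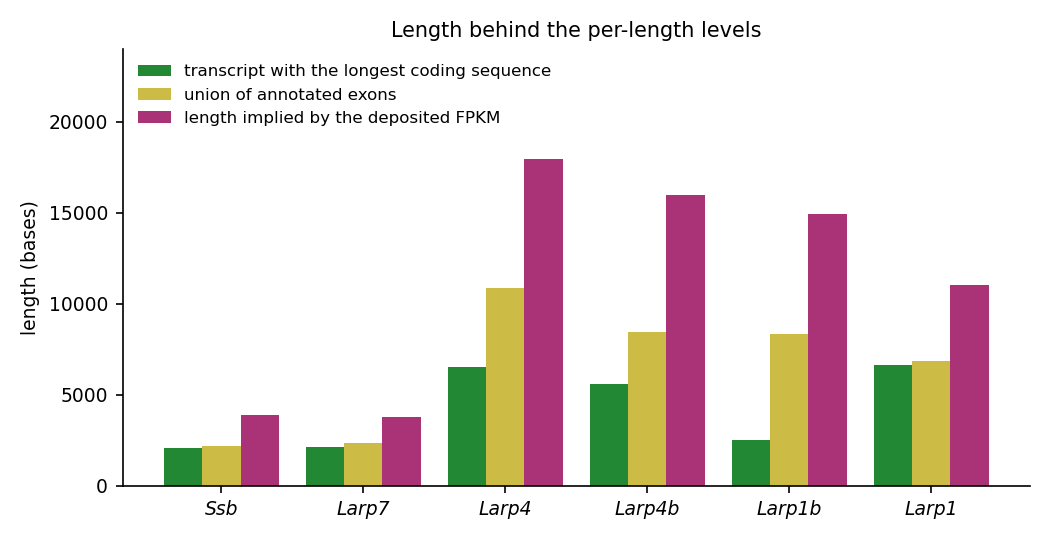
Length in bases behind the per-length level of each LARP family gene with reads: bars from 0 give the transcript with the longest coding sequence, the union of annotated exons and the length implied by the deposited FPKM. The implied length is the longest for every gene and reaches 14928 bases for Larp1b, whose transcript has 2497.

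Reads of some members could have been divided with near-identical copies. Larp4 matches Gm14373, a processed pseudogene on chromosome X, at 98.5% identity over 2145 bases, and Larp7 matches Gm12666, an annotated gene on chromosome 4, at 98.4% over 764 bases. A 60-base stretch of each pair is shown to make plain how few bases separate them; capitals mark the single differing base, G40T for Larp4 and A40T for Larp7, counted from the first base shown, with the LARP gene's base first.
Larp4: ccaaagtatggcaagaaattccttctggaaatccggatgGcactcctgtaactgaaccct
Gm14373: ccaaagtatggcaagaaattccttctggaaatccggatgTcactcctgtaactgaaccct
Larp7: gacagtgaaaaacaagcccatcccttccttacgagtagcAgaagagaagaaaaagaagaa
Gm12666: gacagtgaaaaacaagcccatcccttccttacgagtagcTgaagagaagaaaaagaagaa
Reads assigned to the copies made up 2.26% to 5.54% of the sum for Larp4 (with a second copy, Gm8177, included) and at most 14.3% for Larp7, where Gm12666 had 160 to 235 reads. For Larp1, whose copy is Gm16425, the share was 1.49% to 5.88%. Larp4b, Larp1b and Larp6 had no match of at least 100 bases at 90% identity in a transcript of another gene. Overlapping genes on the opposite strand were Mettl5 (12 to 30 reads) and Gm13625 (0 to 1) for Ssb and 2310068J16Rik (7 to 17) for Larp4. Whether counting used the strand is not given in the sources, so reads in those overlaps cannot be told apart.

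Larp4 and Larp4b themselves were far less alike. Their longest alignment had 71.0% identity over 449 bases, and the longest alignment of Larp1 with Larp1b had 72.2% over 263. A window of 60 bases of the pair, coding bases 727 to 786 of Larp4, is shown with the 11 differing bases in capitals.
Larp4: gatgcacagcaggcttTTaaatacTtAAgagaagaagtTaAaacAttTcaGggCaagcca
Larp4b: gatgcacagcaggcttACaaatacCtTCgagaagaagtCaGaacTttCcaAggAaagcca

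Metformin and control libraries were compared for transcripts that differ after maturation with the drug. Across the 12793 genes tested with edgeR's quasi-likelihood test, 0.0391% passed an adjusted p of 0.05 (Benjamini-Hochberg), 0.0235% higher and 0.0156% lower. Of the 7 LARP family genes 6 entered the test, all except Larp6, and 0 passed; since the family was chosen on knowledge of these counts, nothing is read from that count. In fitted log2 fold change 3 of the 6 were higher and 3 lower, with a median of 0.02 beside 0.01 over all genes tested. In bulk RNA, fewer cells of a type and less RNA per cell cannot be told apart.

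Larp4b, which encodes a poly(A)-binding protein partner, was the member whose groups did not overlap. Its scaled levels were 285.1, 282.9 and 285.9 CPM in control replicates 1 to 3 and 225.3, 214.4 and 173.5 CPM in metformin replicates 1 to 3. All metformin libraries lay below all control libraries, metformin replicate 3 was the lowest, and the control libraries were nearly equal. The control spread, a coefficient of variation of 0.544%, was smaller than the 1.94% that counting error alone gives at that depth, and only 0.180% of the 6668 genes of at least 10 CPM had a smaller one. The metformin spread was 13.4%, with 43.8% of those genes below it. The fitted log2 fold change was -0.48 (SE 0.137), or 28.2% lower with metformin. Of all genes tested, 5.63% had groups that did not overlap, 2.79% with metformin lower and 2.84% with metformin higher. Leaving out any 1 library gave log2 fold changes between -0.55 and -0.37. Without control replicate 1, the library highest in blood markers, the value was -0.48. Since the control libraries were nearly equal, leaving 1 of them out could hardly move the value. A part of blood cells in the difference was not tested.

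Larp4, its paralog with the same partner, stood at 287.5, 237.3 and 308.5 CPM (control) and 356.02, 284.6 and 268.5 CPM (metformin). The ranges overlapped, with metformin replicate 1 highest and control replicate 2 lowest, and the log2 fold change was 0.13 (SE 0.154). The ratio of Larp4b to Larp4 in CPM was 0.992, 1.19 and 0.927 in control and 0.633, 0.753 and 0.646 in metformin libraries. These ranges did not overlap. Those of Larp4b alone did not either, so the ratio is no separate result. The share of other gene pairs whose ratios separate in this way was not computed. The summed level of both genes was 562 ± 38.1 CPM (control) and 507 ± 70.1 CPM (metformin; SD, n = 3 each), and these ranges did overlap. With its pseudogene reads added, Larp4 stood at 287.5 ± 33.0 CPM (control) and 313.6 ± 52.1 CPM (metformin; SD, n = 3 each).

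**Figure D3:**
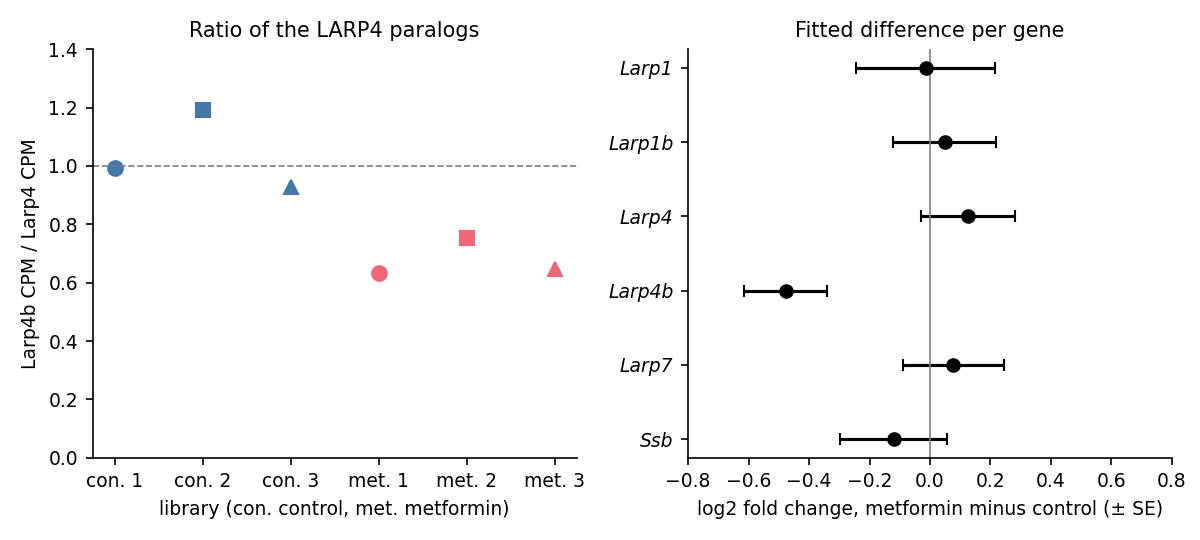
Left, the ratio of Larp4b to Larp4 CPM in each library (axis from 0; the dashed line marks equal CPM); right, the fitted log2 fold change of metformin against control with its SE for the 6 tested genes. The 3 control ratios lie at 0.927 to 1.19 and the 3 metformin ratios at 0.633 to 0.753, and Larp4b lies farthest from 0 on the right.

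Ranges of the LARP1 pair, the cap and TOP binder and its paralog, overlapped between the groups. Larp1 stood at 6.94, 5.43 and 5.79 CPM (control) and 6.85, 5.70 and 5.42 CPM (metformin). The groups covered nearly the same range, and the log2 fold change was -0.01 (SE 0.231). Larp1b stood at 37.4, 40.3 and 45.04 CPM (control) and 35.1, 43.7 and 48.2 CPM (metformin). Metformin libraries were both the lowest and the highest, and the log2 fold change was 0.05 (SE 0.170).

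The nuclear members overlapped between the groups as well. Larp7 stood at 117.5, 114.9 and 131.7 CPM (control) and 111.8, 111.8 and 160.5 CPM (metformin). Metformin replicate 3 was again apart, and the log2 fold change was 0.08 (SE 0.167). Ssb stood at 2237, 2894 and 2186 CPM (control) and 1897, 2082 and 2752 CPM (metformin), a log2 fold change of -0.12 (SE 0.176). Control replicate 2 and metformin replicate 3 were the high libraries of Ssb. Its spread between libraries, 16.2% in control and 20.04% in metformin, was far above the 0.664% that counting error gives in each group.

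**Figure D4:**
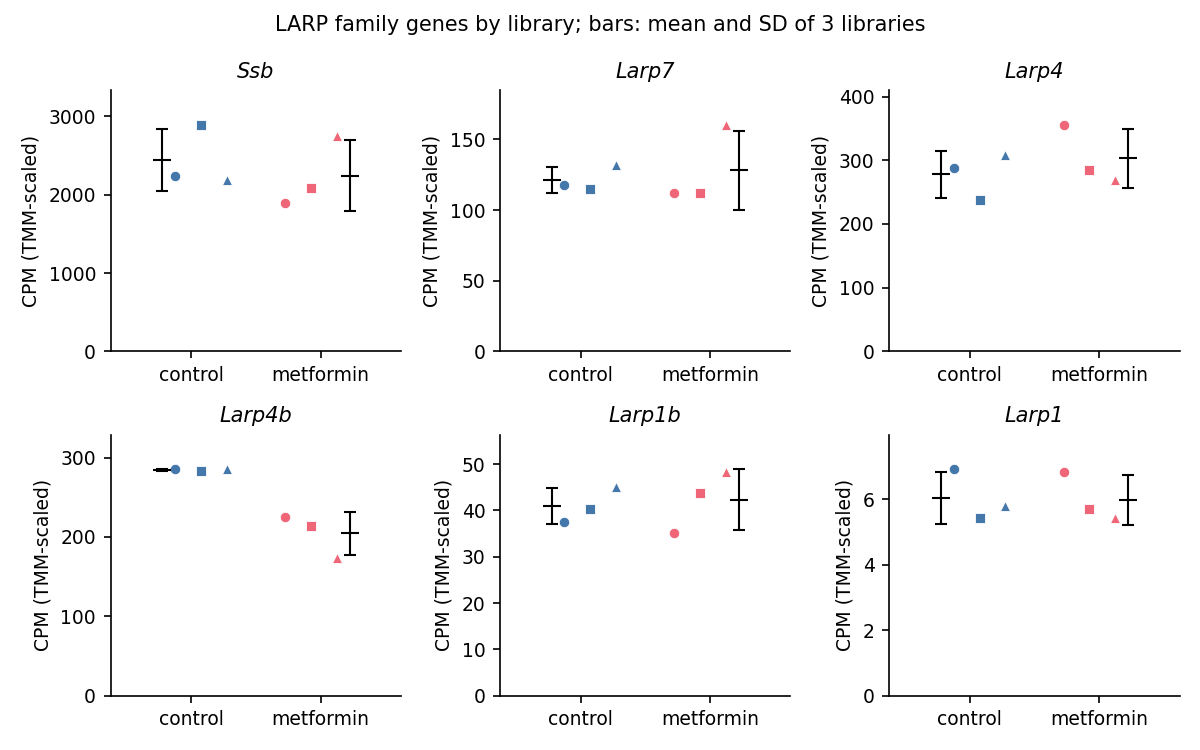
TMM-scaled CPM of the 6 LARP family genes with reads in each library (axes from 0), with the mean and SD of the 3 libraries of each group as black bars. Only in the Larp4b panel do the groups separate, with 3 near-equal control libraries at 282.9 to 285.9 and metformin libraries at 173.5 to 225.3.

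The partners and targets of the LARP proteins were examined through 7 lists with 198 genes, of which 166 were tested. Pabpc1 was in 2 of the lists. By edgeR's quasi-likelihood test 0 passed (over all genes, 0.0391% did), and 0 passed by DESeq2 or limma-voom. Without adjustment 5 of the 166 (3.01%) were under a p of 0.05, of which 3 were higher and 2 lower; over all genes tested 192 (1.5%) were, 0.883% higher and 0.618% lower. The smallest adjusted p was 1.00 by edgeR. The groups did not overlap for 11 (6.63%) of the tested list genes, 5 higher and 6 lower, beside 5.63% of all genes tested. Genes named below for their level or for groups that did not overlap were chosen after their values were seen.

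For LARP4 and LARP4B the list held the poly(A)-binding proteins and the PAIP proteins that regulate them, of which 10 of 13 were tested. Fitted values were higher for 5 and lower for 5, and their median on the log2 scale was 0.03. Per length, as mean FPKM over 6 libraries, the somatic poly(A)-binding protein gene Pabpc1 stood at 0.817, the embryonic Pabpc1l at 5.87, and Paip1, which encodes a partner of poly(A)-binding protein in translation, at 227. These FPKM values rest on the deposited gene lengths described above, which were not replaced for list genes. Within genes, Paip1 had 1286 ± 300 CPM (control) and 1203 ± 185 CPM (metformin), and Pabpc1l had 20.6 ± 5.15 and 19.7 ± 4.25 CPM (SD, n = 3 each). Pabpn1l, which encodes an embryonic poly(A)-binding protein, had 251.9 ± 38.9 CPM (control) and 202.8 ± 9.02 CPM (metformin), without overlap; its log2 fold change of -0.31 (SE 0.142) had an adjusted p of 1.00 by edgeR (0.0491 unadjusted). Pabpc4, a cytoplasmic poly(A)-binding protein gene, had groups without overlap in the other direction, at 58.4 ± 4.39 and 67.2 ± 2.37 CPM (log2 fold change 0.20, SE 0.142), and did not pass. Pabpc4l, a further poly(A)-binding protein gene, had 2.26 ± 0.785 and 3.36 ± 1.29 CPM and did not pass.

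The list of deadenylases, which shorten the tails that LARP4 proteins protect, and of AU-rich element binders had 25 of 26 genes tested. Of these, 12 were fitted higher and 13 lower, with a median of -0.00. Cnot6l, a catalytic subunit of the CCR4-NOT deadenylase, stood at 890 ± 144 CPM (control) and 1207 ± 132 CPM (metformin) without overlap; its log2 fold change of 0.44 (SE 0.156) had an adjusted p of 1.00 by edgeR (0.0159 unadjusted). Pan3, a subunit of the PAN2-PAN3 deadenylase, had groups without overlap in the other direction, at 104.3 ± 12.7 and 89.1 ± 2.24 CPM (log2 fold change -0.23, SE 0.143), and did not pass. Elavl2, an AU-rich element binder, stood at 198 ± 102 and 128 ± 8.30 CPM; control replicate 1 had 2997 of its reads and the other libraries 1202 to 1400.

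For LARP1 the list of the cap-binding complex and mTORC1 had 21 of 22 genes tested, 13 fitted higher and 8 lower, with a median of 0.01. The genes with the smallest p were Rps6kb1, the S6 kinase of mTORC1, at 62.8 ± 6.29 and 72.2 ± 11.4 CPM, and Eif4e3, a cap-binding protein, at 680.2 ± 2.25 and 753.9 ± 92.6 CPM (SD, n = 3 each); neither passed. Per length, Eif4e3 at 284 FPKM (mean of 6 libraries) was above the general cap-binding gene Eif4e at 35.5 FPKM. The deposited gene lengths behind these values were not replaced for list genes, so the distance is uncertain. In CPM, Eif4e stood at 221.6 ± 136 in control and 278.1 ± 50.7 in metformin libraries (SD, n = 3 each). Eif4e had 610 reads in control replicate 1 and 2565 to 3287 in the other libraries. Rptor, the mTORC1 subunit through which LARP1 is recruited in human cells, stood at 3.47 ± 0.779 and 3.39 ± 0.561 CPM (SD, n = 3 each).

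Few of the counted reads were assigned to the TOP mRNAs, the targets of LARP1. The 89 listed genes made up 0.230% to 0.270% of counts in control and 0.228% to 0.261% in metformin libraries. Npm1 alone held 8286 to 10233 of the list's 23216 to 24405 reads per control library. With metformin it held 9019 to 9774 of 24184 to 26101 reads, so 1 gene weighs heavily in these shares. Of the 72 tested, 36 were fitted higher and 36 lower, with a median of -0.00. Ribosomal protein genes have many near-identical pseudogenes, so their counts and the shares above are uncertain. Counts were uneven within the list, with 2 to 4 reads per library for Rps18 and 806 to 1174 for Rpl32. How reads shared with pseudogenes were treated is not given in the sources, so the shares are of assigned reads and not of mRNA. Rpl41 stood at 106 ± 9.78 and 158 ± 44.6 CPM (log2 fold change 0.57, SE 0.198, unadjusted p = 0.0142) and Rpl8 at 7.82 ± 0.784 and 5.40 ± 0.796 CPM (log2 fold change -0.54, SE 0.227, unadjusted p = 0.0368), with an adjusted p of 1.00 for both by edgeR. The groups did not overlap for 5 of the 72 (6.94%), beside 5.63% of all genes tested, so nothing is read from that count. Fau was higher and Rpl8, Rps4x, Rps10 and Rpl23 were lower under metformin. Rps10 had 35 to 55 reads per library. Rpl23 had 12 to 18, and its lowest control level of 1.34 CPM barely cleared its highest metformin level of 1.33 CPM. The site that LARP1 recognises is shown by the first 15 bases of 3 of these transcripts at the RefSeq starts on GRCm38.p6, plus strand for Fau and minus strand for Rpl15 and Rpl35; capitals mark the run of C and T that begins with C.
Fau (chr19:6057947-6057961): CTTCCTCTTTCTTga
Rpl15 (chr14:18270972-18270986): CTTCCTTTCCTCTgg
Rpl35 (chr2:39005117-39005131): CTCTTTCTCTCgaac
A start of C followed by 4 bases each C or T, on the transcript strand, was present in 14 of the 64 listed genes with a RefSeq promoter entry (21.9%) and in 3.01% of all 27025 genes with one. None of the 7 LARP family genes had it at its RefSeq start, and with 3.01% over all genes nothing is read from that. The RefSeq starts lay 2715 (Larp4), 958 (Larp1b) and 132 (Larp6) bases from the GENCODE gene starts. Transcript starts in these oocytes were not measured, so the shares describe annotated starts only.

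For LARP7 the list of the 7SK particle and P-TEFb had 12 of 14 genes tested, 6 fitted higher and 6 lower, with a median of 0.01. The P-TEFb inhibitors that 7SK needs were nearly absent, with 0 to 3 reads of Hexim1 and 2 to 7 reads of Hexim2 per library, and both stayed out of the test. The P-TEFb cyclin Ccnt2 stood at 109.3 to 116.5 CPM (control) and 104.3 to 117.6 CPM (metformin), and its kinase Cdk9 at 3.02 ± 0.405 and 2.18 ± 0.857 CPM (SD, n = 3 each). Cdk9 and Ell2, an elongation factor gene at 7.30 ± 1.05 and 5.81 ± 1.41 CPM, had the smallest p of the list and did not pass.

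For La the list of RNA polymerase III and the maturation of its transcripts had 22 of 24 genes tested, 9 fitted higher and 13 lower, and a median of -0.10. Lsm7, a subunit of the ring that takes over U6 RNA from La, stood at 29.8 ± 7.88 CPM (control) and 52.0 ± 9.37 CPM (metformin) without overlap (log2 fold change 0.80, SE 0.221; adjusted p of 1.00 by edgeR, 0.00371 unadjusted). The groups overlapped for each of the other 6 ring genes listed, among them Lsm2 at 29.0 ± 7.94 and 23.3 ± 4.22 CPM and Lsm8 at 13.2 ± 2.22 and 13.2 ± 2.90 CPM (SD, n = 3 each). Polr3e, a polymerase III subunit gene, also had groups without overlap, at 1.58 ± 0.905 and 2.83 ± 0.388 CPM, and did not pass. Elac2, the tRNA 3′ processing nuclease, stood at 12.5 ± 3.30 and 8.62 ± 2.18 CPM and did not pass. Trove2, which encodes the Ro protein that shares RNAs with La, stood at 9.61 ± 2.50 and 8.85 ± 2.30 CPM.

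For LARP6 the collagen targets had few reads. Col1a1 had 25 reads in control replicate 1 and 0 to 1 in the other libraries, Col1a2 had 20 there and 0 to 4 elsewhere, and Col3a1 had 0 to 4 in all. Control replicate 1 is also the library highest in blood markers, and the source of these reads was not tested. The collagen chaperone gene Serpinh1 had 0 reads in 6 of 6 libraries. Of 11 listed genes 5 were tested, 2 fitted higher and 3 lower with a median of -0.01, namely Strap, Myh10, Fkbp3 and the prolyl hydroxylase genes P4ha1 and P4hb. P4hb, a subunit also used in general protein folding, stood at 263 ± 15.0 and 243 ± 13.3 CPM, and P4ha1 at 71.7 ± 14.8 and 65.4 ± 5.37 CPM (SD, n = 3 each); neither passed.

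**Figure D5:**
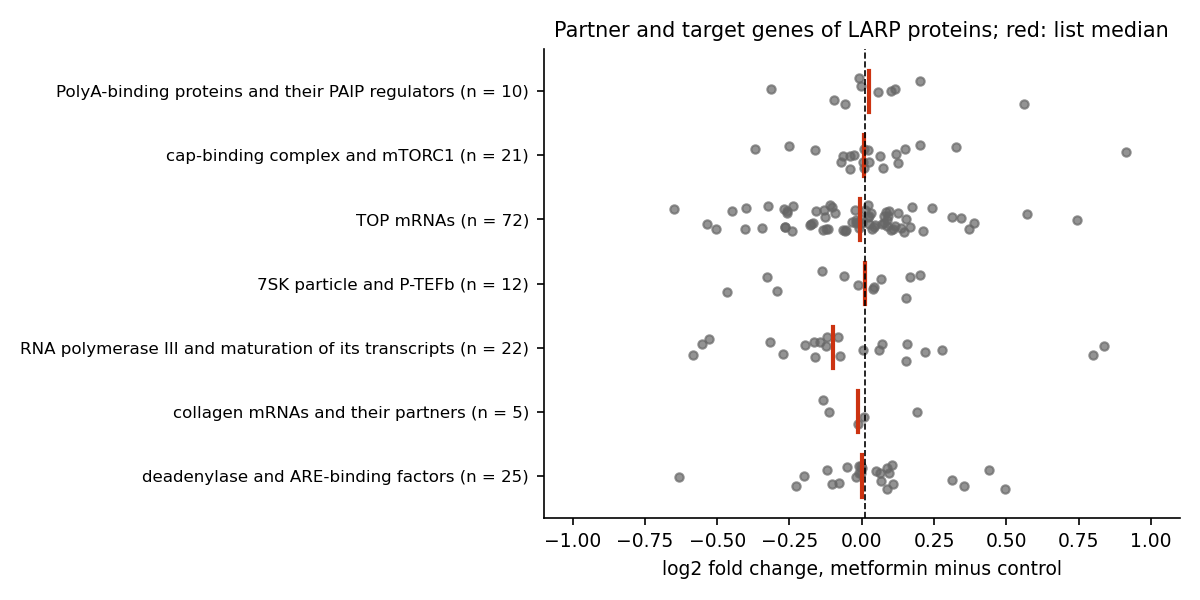
Log2 fold change of metformin against control for every tested partner or target gene (1 grey point per gene, spread vertically for legibility), by list, with the list median in red and the median of all genes tested dashed. List medians lie between -0.10 and 0.03.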

How the data were processed

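Libraries were made with a SMART-Seq HT kit, per the labels' protocols; such kits prime cDNA on poly(A) tails. CASAVA 1.8, TopHat2 2.0.6 and mm10 are named in the submitters' processing notes; for the counting program, annotation and treatment of multimapped reads, nothing is given in the sources used here. Per gene and library, the authors deposited raw read counts and FPKM values, per the file headers. Symbols from GENCODE M21 matched 55141 of 55487 identifiers.

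Counts were tested with edgeR 4.0.16 in R 4.3.3 (quasi-likelihood, robust fit, TMM scaling, filterByExpr at 10 reads, no covariate besides group). CPM use TMM-scaled totals. SE is the absolute log2 fold change divided by the square root of F. FPKM entered no test. Near copies and paralogs were found with BLAST 2.17.0. The procedure was tested on simulated data. Alternatives were other scalings, filters, DESeq2 1.42.0, limma-voom (limma 3.58.1), a replicate block and leaving out each library.

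The members and lists were chosen with earlier results of these data known. Genes named by rule were the 7 members, the 2 tested genes of smallest p in each list, members of lists with 5 or fewer tested, Gdf9 as a reference level, and for each member of at least 10 CPM the 3 genes of highest Pearson r (log2 CPM, prior count 2). Other list genes, among them Paip1, Eif4e, Rptor and Ccnt2, were named outside these rules after their values were seen. Table columns carry the initial and number of each sample title. Labels do not say whether samples came from separate animals or cultures, so p-values cover the spread among these 6 samples alone, and that spread may be technical. Intervals and floors cover counting error only.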

Additional observations from a re-analysis of the deposited data

How the results depend on the processing

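The number of genes called (5) was within 1.5 times of that under RLE, upper-quartile and total-count scaling, other filters, limma-voom and the non-robust fit, which gave 4 to 6. DESeq2 called 9. Leaving out 1 library gave 5 to 12 genes: control replicate 1 left out gave 9, control replicate 2 gave 5 and control replicate 3 gave 8, while for metformin replicates 1, 2 and 3 the counts were 9, 11 and 12; the cause was not tested. Same-numbered libraries correlated in their deviations from the group means at 0.144, 0.0441 and 0.200, each library correlating best with its own number, which is a hint and not part of the design. With 1 correlation under 0.1, the numbers were not taken to pair the libraries; with the replicate number as a block 7 genes were called. No LARP family gene and no list gene was called under any of these 15 settings. The log2 fold change of Larp4b stayed between -0.55 and -0.37 in all of them, while those of Larp1, Larp1b, Larp4, Larp7 and Ssb, none of them called, took both signs when 1 library was left out. In the order of levels, 4 of 6 ranks were kept per kb of exon union and without metformin replicate 1, where Larp4b passed Larp4, and 6 otherwise. The median SE of a log2 fold change was 0.181 over the genes of at least 10 CPM, which sets the precision of 3 libraries per group.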

Other observations

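The genes whose levels ran most like those of each LARP family gene over the 6 libraries were sought among 6667 other genes of at least 10 CPM, on log2 CPM. The libraries share a depth range and a preparation, r includes any difference between the groups, and the values are a description. How many genes reach such an r for a typical gene over 6 libraries was not computed. For Larp4b the nearest genes were Cep76, a centrosomal protein gene (Pearson r = 0.990, Spearman rho = 0.943), the zinc-finger gene Zfp760 (0.967 and 0.771) and Gm7896 (0.967 and 0.829). Cep76 also had near-equal control libraries, with 30.2 ± 0.0524 CPM (control) and 26.7 ± 1.78 CPM (metformin; SD, n = 3 each). It was picked by r over these same libraries, so this likeness is no separate result. For Larp4 they were Atg16l1, Spats2 and Camk2g (r of 0.975 to 0.986), and for Ssb they were Ralyl, Ptpre and Oas1h (0.972 to 0.979). Genes above an r of 0.95 numbered 7 each for Larp4b, Larp4 and Ssb, 67 for Larp7 and 128 for Larp1b. Those nearest Larp7 were Tsn, Nutf2-ps1 and Dkc1, a small nucleolar RNA protein gene (0.991 to 0.995), and those nearest Larp1b were Cyth1, Hat1 and Scand1 (0.994 to 0.995).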
